A study of Mus musculus with 20 samples.

Results

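Glutamate receptors and the proteins that assemble with them or gather them at synapses were described here in the brain of mice carrying an acetylation-mimic form of TDP-43, the RNA-binding protein encoded by Tardbp. The members were chosen by gene name from the receptor classes, with earlier results of these data known, and were 33 of the 24528 genes in the deposited table, comprising 4 AMPA, 6 NMDA and 5 kainate receptor subunits, 1 delta receptor subunit, 6 metabotropic receptors, 6 AMPA auxiliary subunits, 2 kainate auxiliary subunits and 3 neuronal pentraxins. No member was at 0 throughout, and all 33 passed the filter on low values in both regions. Total RNA was sequenced from neocortex and hippocampus of mice aged 18 months. The neocortex had 5 TDP-43 wt libraries (3 female, 2 male) and 6 libraries from homozygous TDP-43 KQ/KQ mice (3 female, 3 male), and the hippocampus had 4 wt (3 female, 1 male) and 5 KQ/KQ libraries (3 female, 2 male). The KQ/KQ mice carry glutamine in place of an acetylatable lysine on both copies of the endogenous Tardbp gene. The change was made by CRISPR in C57BL/6J zygotes together with silent substitutions for genotyping, is driven by the gene's own promoter in every cell, and was kept as a founder line. No transgene, Cre or treatment is named for any of the 4 groups.

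Glutamate is the main excitatory transmitter of the forebrain. AMPA receptors carry the fast synaptic current, NMDA receptors admit calcium when glutamate coincides with depolarization and trigger plasticity, kainate receptors tune release and excitability, and the metabotropic receptors signal through G proteins. Auxiliary subunits set where the receptor channels go and how they gate, and the secreted pentraxins cluster AMPA receptors on the cell surface. Hippocampal pyramidal and granule cells and neocortical layers are known to use different mixtures of these proteins.

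The values are log2-like expression after a variance-stabilizing transformation (VST), from which the authors had removed sex and litter. Each gene's values were set to average 0 over the 6 neocortex KQ/KQ libraries, so a value is a log2 distance from that mean, read depth is unknown, and levels of different genes cannot be compared. Neocortex wt male 1 is the single library of its litter and equals its group's fitted value for every gene, so it adds no information on spread. In the fits of each region alone, further libraries add none either, as listed with the genotype results. The neocortex and hippocampus libraries numbered KQ/KQ female 2 are alone in their litter, and they deviate from their fitted values by equal and opposite amounts. The labels do not say which libraries came from separate mice, so p-values measure the spread between these libraries. Tardbp itself, in which the edit lies, was higher in every KQ/KQ library than in every wt library of its region, by 0.99 ± 0.069 (log2, SE) in neocortex (adjusted p = 0.00192, limma) and by 0.86 ± 0.13 in hippocampus (adjusted p = 0.204). The dissections carried the markers of their region: all 8 hippocampal subfield markers lay above neocortex in both genotypes, with 7 called in wt and 8 in KQ/KQ. Of 8 neocortical layer markers, 5 were lower in hippocampus in both genotypes and 3 (Fezf2, Bcl11b and Tshz2) were higher.

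The first comparison asked how the members differ between hippocampus and neocortex. The AMPA receptor partner Shisa6, which limits desensitization of synaptic AMPA receptors, was the member with the largest difference, at chr11:66211725-66527984 in GRCm38.p6, with a log2 difference of 2.92 ± 0.11 (SE) in wt and 2.66 ± 0.095 in KQ/KQ mice, a 7.58-fold and 6.33-fold higher value on this scale. The AMPA subunit Gria1, the cornichon Cnih2 and the kainate subunit Grik4 were also higher in hippocampus. The synaptic organizer Nptx2, the AMPA auxiliary subunit Gsg1l, the metabotropic receptor Grm3 and the kainate subunit Grik3 were lower. In wt mice, 15 members were higher and 9 lower at an adjusted p under 0.05 (limma, Benjamini-Hochberg), where 13.5% of the 17863 genes tested were higher and 14.7% lower. In KQ/KQ mice, 10 members were higher and 12 lower, where 17.2% and 18.2% of all genes were. Of the 33 members, 10 were higher and 9 lower in both genotypes, 5 passed in wt alone, 3 in KQ/KQ alone and 6 in neither. Of the 17863 genes, 1753 were higher and 2204 lower in both, 1083 passed in wt alone, 2358 in KQ/KQ alone and 10464 in neither. The share called in both, in the same direction, was 57.6% of the members and 22.2% of all genes. The median size of the difference, without its sign, was 0.40 over the members and 0.11 over all genes in wt, and 0.26 and 0.10 in KQ/KQ.

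**Figure D1:**
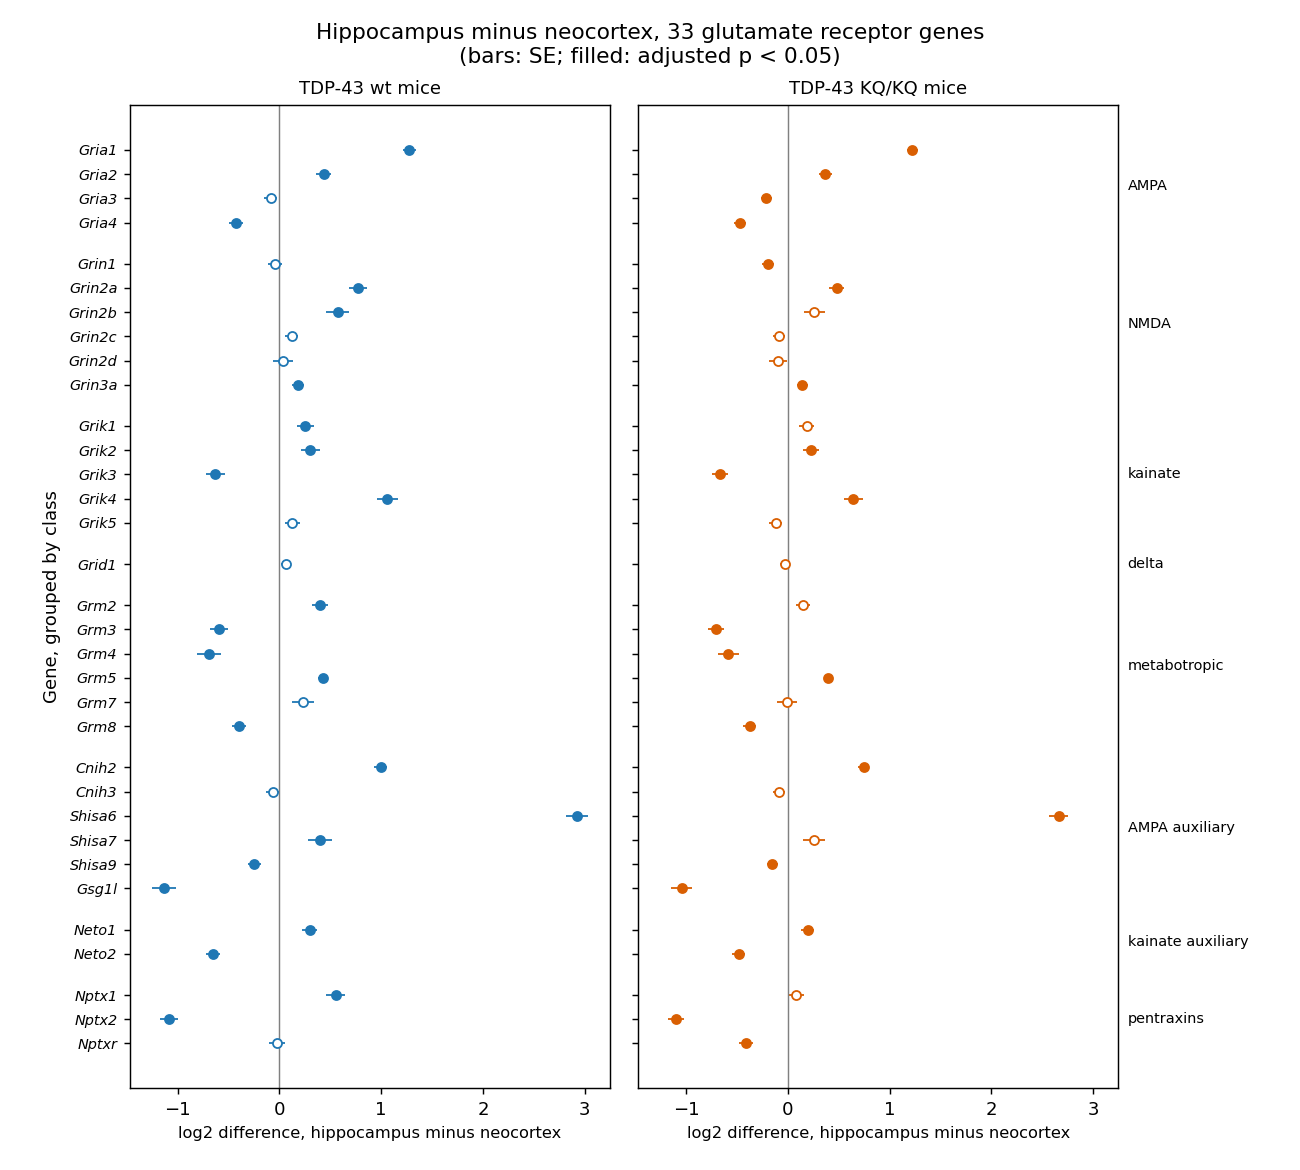
Log2 difference between hippocampus and neocortex (x axis, log2, hippocampus minus neocortex) for each of the 33 members (y axis, by class), in wt mice on the left and KQ/KQ mice on the right. Points are the fitted differences, bars their SE and filled points those with an adjusted p under 0.05. Shisa6 lies far to the right in both panels, at 2.92 and 2.66, and Gsg1l and Nptx2 lie near -1.

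The AMPA receptor subunits split by member. Gria1 (chr11:57011571-57330244), a subunit recruited in synaptic plasticity, had hippocampal values of 1.39, 1.29, 1.38 and 1.31 in wt, and of 1.25, 1.15, 1.32, 1.13 and 1.26 in KQ/KQ mice. In the neocortex it lay from -0.012 to 0.18 in wt, and from -0.11 to 0.081 in KQ/KQ mice. The regions did not overlap, and the difference was 1.28 ± 0.062 in wt (adjusted p = 1.1e-09, limma) and 1.22 ± 0.054 in KQ/KQ mice (adjusted p = 3.02e-10). Gria2, whose edited subunit keeps AMPA receptors calcium-impermeable, was higher in hippocampus by 0.44 ± 0.075 and 0.37 ± 0.066. Gria4, a subunit known from interneurons, was lower, at -0.43 ± 0.067 and -0.47 ± 0.059. Gria3, which pairs with the Gria2 product, was at -0.086 ± 0.061 in wt (adjusted p = 0.327) and lower, at -0.21 ± 0.054, in KQ/KQ mice (adjusted p = 0.00643). The difference between the genotypes for Gria3 did not pass the test (adjusted p = 0.856). The class median was 0.18 in wt and 0.079 in KQ/KQ mice, beside medians over all genes of 0.0054 and 0.013.

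The AMPA auxiliary subunits lay in both directions. Shisa6 lay at 2.92, 2.70, 2.95 and 2.87 in the wt and at 2.64, 2.49, 2.84, 2.62 and 2.72 in the KQ/KQ hippocampus. In the neocortex its values ran from -0.24 to 0.15 in wt and from -0.21 to 0.18 in KQ/KQ. No hippocampal library came near the neocortical range (adjusted p = 7.6e-11 and 3.4e-11, limma). Cnih2, which carries AMPA receptors to the surface and slows their gating, lay at 0.99, 1.10, 1.01 and 1.06 in the wt hippocampus and at 0.63, 0.70, 0.72, 0.94 and 0.75 in the KQ/KQ hippocampus. Its neocortical libraries lay between -0.069 and 0.12 in wt and between -0.062 and 0.051 in KQ/KQ. The regional difference of Cnih2 was 0.99 ± 0.063 in wt (adjusted p = 1.58e-08) and 0.75 ± 0.055 in KQ/KQ mice (adjusted p = 6.18e-08).

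Gsg1l, a suppressor of AMPA receptor current, went the other way. Its hippocampal values were -1.09, -1.11, -1.03 and -1.15 in wt and -1.17, -0.74, -1.24, -0.81 and -1.24 in KQ/KQ mice, against -0.017 to 0.10 and -0.30 to 0.13 in the neocortex. The difference was -1.14 ± 0.12 in wt and -1.04 ± 0.10 in KQ/KQ mice, with no overlap. The 2 KQ/KQ hippocampal libraries nearest the neocortex were female 2 and male 1, and the lowest neocortical value was that of KQ/KQ female 2. Shisa9, which modulates AMPA receptor short-term plasticity, was lower as well, at -0.25 ± 0.061 and -0.15 ± 0.053. Its relative Shisa7 was at 0.40 ± 0.12 in wt (called) and 0.26 ± 0.10 in KQ/KQ mice (adjusted p = 0.0682), and the second cornichon, Cnih3, passed in neither genotype.

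Among NMDA receptor subunits, Grin2a, which gives adult receptors their fast kinetics, was higher in hippocampus by 0.77 ± 0.087 in wt and 0.48 ± 0.076 in KQ/KQ mice. Grin2b, the subunit of slower receptors, was higher by 0.57 ± 0.11 in wt, and its value in KQ/KQ mice was 0.26 ± 0.099 (adjusted p = 0.0522). Grin3a, which lowers calcium entry, was higher by 0.19 ± 0.060 and 0.14 ± 0.053. The obligatory subunit Grin1 was at -0.041 ± 0.068 in wt and lower, at -0.19 ± 0.060, in KQ/KQ mice. Grin2c and the interneuron-associated Grin2d passed in neither genotype. The class median was 0.15 in wt and 0.030 in KQ/KQ mice.

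The kainate receptor subunits spanned both directions. Grik4 (chr9:42518182-42945000), a high-affinity subunit known from CA3 pyramidal cells, lay at 1.07, 0.60, 0.85 and 0.89 in the wt hippocampus and at 0.54, 0.56, 0.74, 0.54 and 0.84 in the KQ/KQ hippocampus. Its neocortical values were -0.28 to -0.16 in wt and -0.16 to 0.18 in KQ/KQ. All hippocampal libraries lay above all neocortical ones, by 1.06 ± 0.10 in wt (adjusted p = 1.72e-06) and 0.64 ± 0.092 in KQ/KQ mice (adjusted p = 5.72e-05). Grik3, a low-affinity subunit, had hippocampal values of -0.71, -0.84, -0.78 and -0.70 in wt and of -0.60, -0.56, -0.80, -0.50 and -0.87 in KQ/KQ mice, all below the neocortical ranges of -0.30 to 0.022 and -0.13 to 0.17. The differences of Grik3 were -0.63 ± 0.093 and -0.67 ± 0.082. Grik2 was higher by 0.31 ± 0.090 and 0.23 ± 0.079, Grik1 was higher in wt by 0.25 ± 0.085 (0.19 ± 0.075 in KQ/KQ, adjusted p = 0.0667), and Grik5, the other high-affinity subunit, passed in neither. The kainate auxiliary subunits also parted: Neto1 was higher by 0.30 ± 0.074 and 0.20 ± 0.065, and Neto2 was lower, at -0.65 ± 0.072 and -0.48 ± 0.063. Grid1, a delta receptor that binds cerebellins and does not act as a typical glutamate-gated channel, passed in neither genotype.

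The metabotropic receptors also moved in both directions. Grm5, the postsynaptic group I receptor, was higher in hippocampus by 0.43 ± 0.051 in wt and 0.40 ± 0.045 in KQ/KQ mice. Of the receptors that couple to inhibitory G proteins, Grm3 was at -0.77, -0.44, -0.64 and -0.64 in the wt and at -0.73, -0.66, -0.62, -0.60 and -0.91 in the KQ/KQ hippocampus. Its neocortical values were -0.18 to 0.068 and -0.088 to 0.16, above all hippocampal ones, and the differences were -0.60 ± 0.088 and -0.70 ± 0.077. Presynaptic Grm4 was lower too, at -0.69 ± 0.12 and -0.59 ± 0.10, and Grm8, another presynaptic receptor, was lower at -0.40 ± 0.072 and -0.37 ± 0.063. Grm2, a presynaptic autoreceptor, was higher in wt by 0.40 ± 0.080, with 0.15 ± 0.071 in KQ/KQ mice (adjusted p = 0.115), and Grm7, which sits in the active zone, passed in neither. The class median was -0.082 in wt and -0.19 in KQ/KQ mice.

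The pentraxins differed from each other. Nptx2 (chr5:144545887-144557478), an activity-induced pentraxin that gathers AMPA receptors on interneurons, lay at -0.95, -0.90, -0.73 and -0.71 in the wt hippocampus and at -1.14, -1.05, -1.09, -1.03 and -1.16 in the KQ/KQ hippocampus. Its neocortical values were 0.44, 0.38, 0.077, 0.26 and 0.14 in wt, and ran from -0.18 over a median of 0.020 to 0.10 in KQ/KQ mice. The regional difference was -1.08 ± 0.091 (adjusted p = 3.28e-07) in wt and -1.10 ± 0.080 (adjusted p = 5.21e-08) in KQ/KQ mice, without overlap. Nptx1, its constitutive relative, was higher in the wt hippocampus by 0.55 ± 0.092 (adjusted p = 0.000297), and in KQ/KQ mice its value was 0.083 ± 0.081 (adjusted p = 0.46). Nptxr, the membrane-bound pentraxin receptor, was at -0.021 ± 0.080 in wt (adjusted p = 0.876) and lower, at -0.41 ± 0.071, in KQ/KQ mice (adjusted p = 0.000314). The tests of the difference between genotypes for Nptx1 and Nptxr are given with the genotype results.

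**Figure D2:**
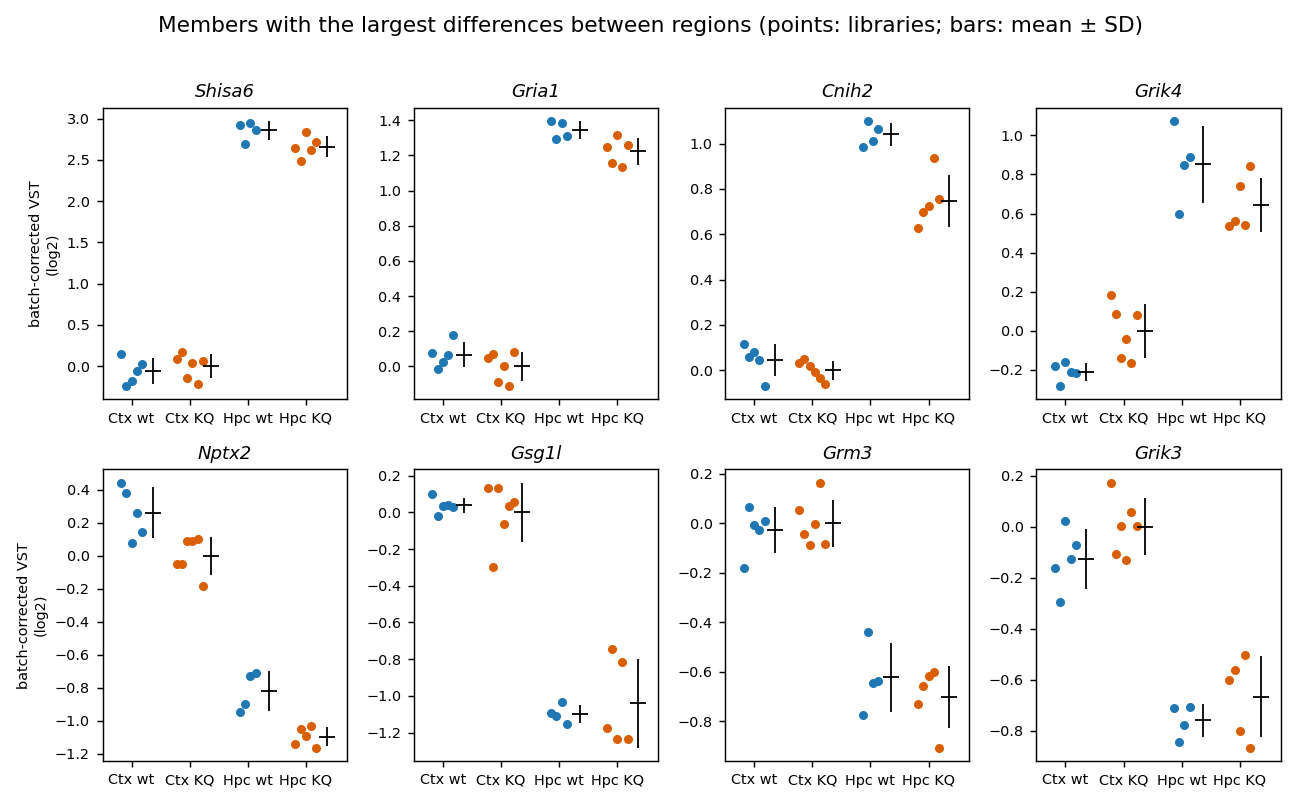
Batch-corrected VST values (y axis, log2, 0 is the neocortex KQ/KQ mean) of the 4 members with the highest and the 4 with the lowest difference, on the mean of both genotypes, among those called in both, by group (x axis: Ctx neocortex, Hpc hippocampus). Points are libraries (wt blue, KQ/KQ orange), and bars are mean ± SD (n = 5, 6, 4 and 5 from left to right). In each panel the hippocampal points lie apart from the neocortical points, above for Shisa6, Gria1, Cnih2 and Grik4 and below for Nptx2, Gsg1l, Grm3 and Grik3.

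The members called higher in both genotypes were Gria1, Gria2, Grin2a, Grin3a, Grik2, Grik4, Grm5, Cnih2, Shisa6 and Neto1. Those called lower in both were Gria4, Grik3, Grm3, Grm4, Grm8, Shisa9, Gsg1l, Neto2 and Nptx2. Striatal markers moved with region as well: all 6 listed were lower in hippocampus in both genotypes (medians -2.47 in wt and -2.07 in KQ/KQ), none was at 0 throughout, and their mean ran from 0.029 to 0.48 in the wt and from -0.22 to 0.16 in the KQ/KQ neocortex, against -2.35 to -2.16 and -2.44 to -2.01 in hippocampus. Of 7 interneuron markers, 6 lay lower in hippocampus in wt and 7 in KQ/KQ, with medians of -0.59 and -0.33 and 5 called lower in each. Excitatory neuron markers had medians of -0.19 and -0.45, with 3 and 4 of 6 called lower and 2 and 1 higher. Oligodendrocyte markers all lay higher in hippocampus (medians 0.26 and 0.14, 3 and 2 of 6 called), as did choroid plexus markers (1.15 and 2.26, 0 and 3 of 4 called). Astrocyte markers had medians of 0.18 and 0.17, with 3 and 4 of 7 called higher. The part of these cell types in the members' regional differences was not tested. In bulk tissue, fewer cells of a type and less RNA per cell cannot be told apart.

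Promoter sequences of the RefSeq annotation (GRCm38.p6) were matched for 17 of the 33 members. Of these, 4 are shown because their genes were called between regions in wt (Cnih2 and Grm2 higher in hippocampus, Grm3 and Gria4 lower) and their 250 bases before the start lie outside the gene itself and overlap no annotated exon. They are written 5′ to 3′ on the gene's strand, the minus strand in each, with capitals marking the GC box core GGGCGG on either strand (CCGCCC on the other).
Cnih2, chr19:5098522-5098771: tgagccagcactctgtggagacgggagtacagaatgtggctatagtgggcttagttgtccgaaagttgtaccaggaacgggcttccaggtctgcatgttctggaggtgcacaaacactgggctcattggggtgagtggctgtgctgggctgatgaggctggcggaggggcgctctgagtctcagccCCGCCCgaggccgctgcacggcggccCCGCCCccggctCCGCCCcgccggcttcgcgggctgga
Grm2, chr9:106656110-106656359: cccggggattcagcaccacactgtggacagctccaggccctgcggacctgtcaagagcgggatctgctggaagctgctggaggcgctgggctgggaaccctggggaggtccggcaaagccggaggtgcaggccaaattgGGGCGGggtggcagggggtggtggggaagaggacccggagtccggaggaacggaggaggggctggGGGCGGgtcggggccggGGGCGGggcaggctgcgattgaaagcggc
Grm3, chr5:9725353-9725602: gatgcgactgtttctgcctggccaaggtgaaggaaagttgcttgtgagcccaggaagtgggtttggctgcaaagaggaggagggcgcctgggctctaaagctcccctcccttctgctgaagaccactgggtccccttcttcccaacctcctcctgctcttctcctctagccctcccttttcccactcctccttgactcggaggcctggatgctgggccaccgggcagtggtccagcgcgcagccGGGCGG
Gria4, chr9:4796235-4796484: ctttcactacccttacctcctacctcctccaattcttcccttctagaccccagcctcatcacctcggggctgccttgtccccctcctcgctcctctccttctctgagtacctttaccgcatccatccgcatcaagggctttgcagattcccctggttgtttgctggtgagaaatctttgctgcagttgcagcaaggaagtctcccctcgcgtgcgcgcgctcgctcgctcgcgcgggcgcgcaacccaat
The core occurred at 3 places for Cnih2, at 3 for Grm2, at 1 for Grm3 and at 0 for Gria4. It was found in 12 of the 17 member windows and in 32.7% of the 32851 windows of the same length. The CRE half-site TGACG was found in 1 member window (Grin1) and in 17.8% of all windows. The AP-1 site TGAGTCA and the TATA box TATAAA were found in 0 of the 17, and in 4.46% and 12.4% of all windows. For each member only the most upstream window was used, whereas the 32851 include every window listed, so these shares are not like for like. Some member windows lie within the gene itself or overlap an annotated exon. GC content of the member windows ran from 54.4% (Grin2d) to 82% (Grik3) and was not measured over all windows. A match describes letters in the window, not binding.

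The second comparison asked whether the members differ between KQ/KQ and wt mice within each region. No member was called in either region: 0 of 33 had an adjusted p under 0.05 in the neocortex, where 0.0382% of 18329 genes did, and 0 of 33 in the hippocampus, where 0% of 18310 genes did (limma with genotype, sex and litter). With 4 and 3 residual degrees of freedom, the lack of calls does not show that the members are unchanged. The paper tested counts of these same libraries with DESeq2, correcting for sex and litter, and reported many more genes in each region than were called here. It lists Cnih2 among genes decreased in hippocampus and Nptx1 among those upregulated in cortex. Their values here had the same signs, which is not separate evidence because the libraries are the same. At an unadjusted p under 0.05 there were 5 members in the neocortex (13.7% of all genes) and 5 in the hippocampus (12.1% of all genes). These counts, and those over all genes, rest on single libraries. In the neocortex there were 9 members without wt female 3, without KQ/KQ female 3 or without KQ/KQ male 1. Each of these fits gave the same 3321 genes in place of 2503, so they are not separate results. In the hippocampus there was 1 member without KQ/KQ female 1 (497 genes in place of 2224) and 9 without wt female 2 (2070 genes). Some other libraries carried no weight in these fits. The counts stayed at 5 members and 2503 genes without neocortex wt male 1 or KQ/KQ female 2. They stayed at 5 members and 2224 genes without hippocampus wt female 3, KQ/KQ female 2 or KQ/KQ female 3. Over all genes, leaving out each library gave 0 to 9 adjusted calls in the neocortex. In the hippocampus it gave 128 without wt male 1. In the neocortex 25 members had values above 0 and 8 below, with a median of 0.053 beside -0.0037 over all genes, and in the hippocampus 9 were above and 24 below, with a median of -0.059 beside -0.0047. SEs of the members ran from 0.048 to 0.12 in the neocortex and from 0.062 to 0.14 in the hippocampus.

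**Figure D3:**
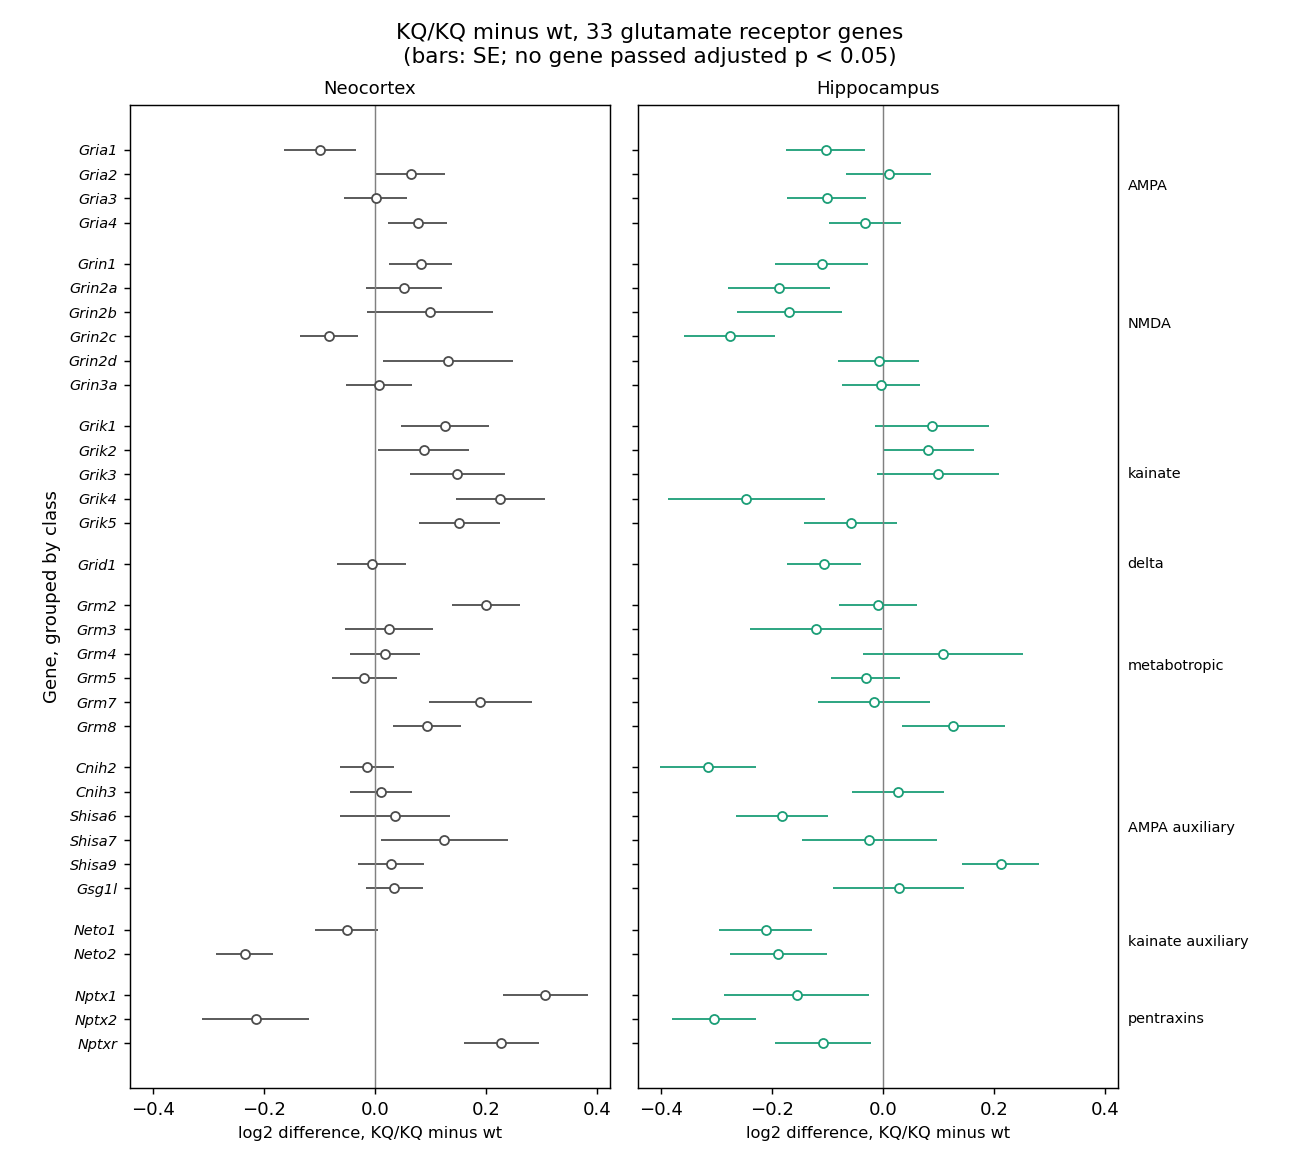
Log2 difference between KQ/KQ and wt mice (x axis, log2, KQ/KQ minus wt) for each of the 33 members (y axis, by class) in neocortex on the left and hippocampus on the right. Points are fitted differences and bars their SE, and every point is open because none had an adjusted p under 0.05. Most points lie to the right of 0 in neocortex (25 of 33) and to the left in hippocampus (24 of 33).

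By class, the neocortical medians were 0.033 for AMPA subunits, 0.068 for NMDA subunits, 0.15 for kainate subunits and 0.060 for metabotropic receptors. All 5 kainate subunits had positive values, from 0.088 ± 0.082 for Grik2 to 0.23 ± 0.080 for Grik4. In the hippocampus the medians were -0.067, -0.14, 0.082 and -0.013. All 6 NMDA subunits had negative values there, from -0.0044 ± 0.070 for Grin3a to -0.28 ± 0.082 for Grin2c. The medians rest on few libraries: without KQ/KQ female 1 the neocortical ones were -0.035 for AMPA, 0.028 for kainate and -0.0031 for metabotropic receptors, and the hippocampal kainate median was -0.042. Without wt male 1 the latter was 0.16. None of these class members passed the test, and the lowest adjusted p was 0.263 (Grm2) among the 4 classes in the neocortex and 0.294 (Grin2c) in the hippocampus.

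In the neocortex the lowest p belonged to Neto2 (chr8:85636718-85700952), which sets kainate receptor gating and placement. Its wt values were 0.24, 0.33, 0.24, 0.25 and 0.21, and its KQ/KQ values ran from -0.083 over a median of 0.010 to 0.078. All KQ/KQ libraries lay below all wt libraries, and the fitted difference was -0.23 ± 0.051 (unadjusted p = 0.0012, adjusted p = 0.178, limma), with a 95% interval, not adjusted for the number of genes, of -0.35 to -0.12. Nptx1 lay at -0.13, -0.47, -0.31, -0.31 and -0.33 in wt, and from -0.085 over 0.00075 to 0.069 in KQ/KQ mice. The genotypes did not overlap, and the difference was 0.31 ± 0.076 (adjusted p = 0.215). Nptxr lay at -0.10, -0.34, -0.26, -0.25 and -0.28 in wt and from -0.13 over -0.011 to 0.18 in KQ/KQ mice. Female 1 of wt lay above the lowest KQ/KQ library, male 2, and the difference was 0.23 ± 0.067 (adjusted p = 0.257). Grm2 also kept the genotypes apart, at -0.30 to -0.10 in wt and -0.093 to 0.19 in KQ/KQ mice (difference 0.20 ± 0.061). The members without overlap in the neocortex were thus Grm2 and Nptx1, higher in KQ/KQ, and Neto2, lower, where 4.22% and 4.29% of all genes were separated in those directions.

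In the hippocampus the lowest p belonged to Nptx2, whose values by library are given above. All KQ/KQ libraries lay below all wt libraries, and the difference was -0.30 ± 0.076 (unadjusted p = 0.00441, adjusted p = 0.275, limma; 95% interval -0.48 to -0.13). In the neocortex the value of Nptx2 was -0.21 ± 0.096, with overlap. Cnih2, also given by library above, was separated in the same direction in the hippocampus, at -0.32 ± 0.086 (adjusted p = 0.281). Grin2c, an NMDA subunit found in astrocytes and interneurons as well as cerebellum, lay at 0.29, 0.084, 0.36 and 0.14 in wt and at -0.16, -0.033, -0.093, -0.080 and -0.046 in KQ/KQ mice, again without overlap (difference -0.28 ± 0.082, adjusted p = 0.294). These 3 members were separated lower in KQ/KQ, where 5.35% of all genes were, and 0 were separated higher, where 4.1% were. Values for Shisa9 (0.21 ± 0.069) and Neto1 (-0.21 ± 0.084) also had unadjusted p under 0.05, without adjusted calls.

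**Figure D4:**
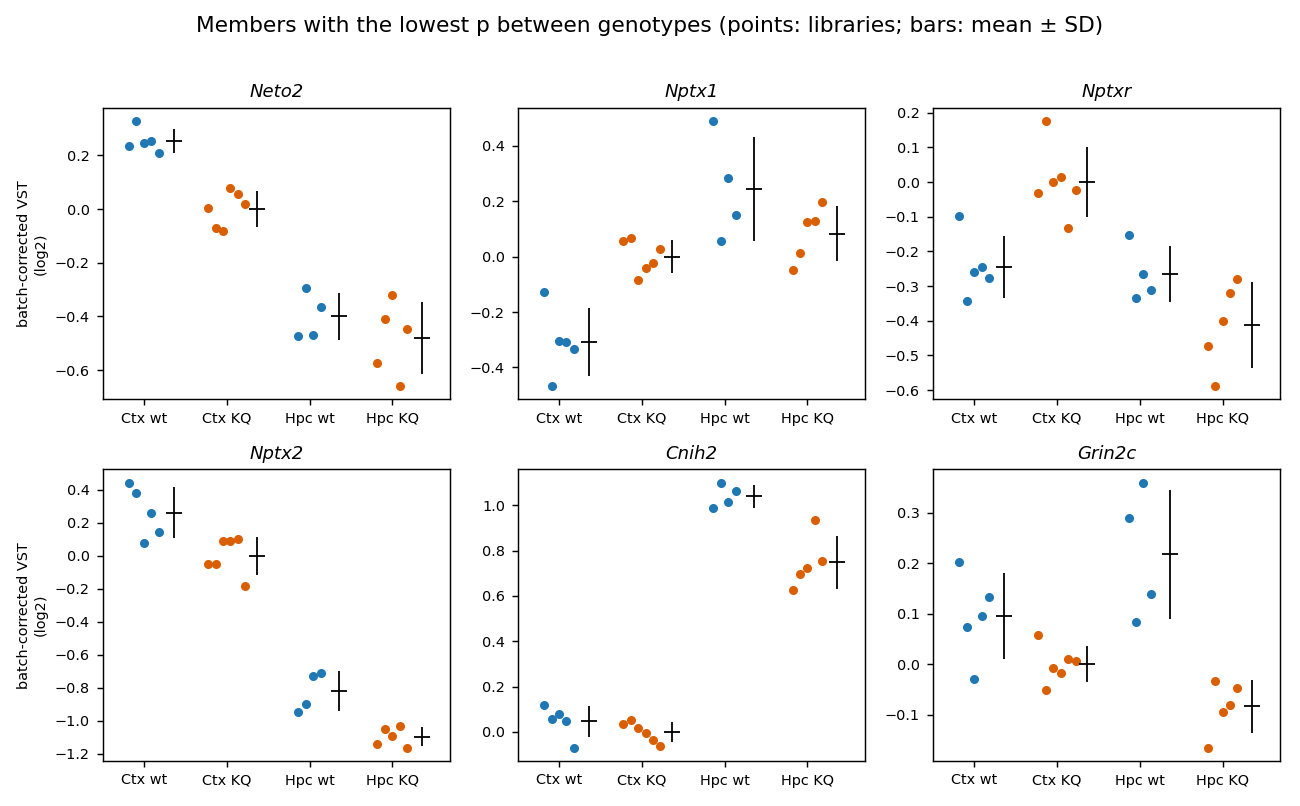
Batch-corrected VST values (y axis, log2, 0 is the neocortex KQ/KQ mean) of the 3 members with the lowest p between genotypes in each region, by group (x axis: Ctx neocortex, Hpc hippocampus). Points are libraries (wt blue, KQ/KQ orange), and bars are mean ± SD (n = 5, 6, 4 and 5 from left to right). The neocortical points of Neto2 and Nptx1 and the hippocampal points of Nptx2, Cnih2 and Grin2c do not overlap between genotypes.

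Fitting both regions together, with libraries of the 2 regions taken as independent, also called 0 members. The neocortical effect was called for 0.224% of 17863 genes and the hippocampal effect for 0.386%. At unadjusted p under 0.05 there were 5 members in each, beside 14.4% and 14.8% of all genes. The 5 in the neocortex became 9 without neocortex KQ/KQ female 3 and 8 without neocortex wt male 2 or KQ/KQ male 1. Over all genes these fits gave 3067, 3189 and 3844 in place of 2581. The 5 in the hippocampus became 9 without hippocampus wt female 2 or KQ/KQ female 3 (2107 and 2646 genes in place of 2650). They became 3 without hippocampus wt female 3 or wt male 1 (2686 and 2099 genes). Leaving out each library gave 7 (without neocortex KQ/KQ female 1) to 123 (without hippocampus wt female 2) adjusted calls over all genes for the neocortical effect. For the hippocampal effect it gave 8 (without hippocampus KQ/KQ female 1) to 137 (without neocortex KQ/KQ male 1). The adjusted p of Grin2c in hippocampus was 0.0693 (difference -0.30 ± 0.067) and that of Cnih2 was 0.0721 (-0.29 ± 0.066), while that of Neto2 in neocortex was 0.155 (-0.25 ± 0.070). These fits use the same libraries as those of each region and are not separate evidence. The call of no member depends on the litter terms. With genotype as the single term in the neocortex, 6 members were called (Grik4, Grm2, Neto2, Nptx1, Nptx2 and Nptxr), and in the hippocampus 3 (Grin2c, Cnih2 and Nptx2). Over all genes, the same fits called 2745 of 18329 in neocortex and 373 of 18310 in hippocampus. In those fits the degrees of freedom do not count the sex and litter terms already removed from the deposited values.

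The third comparison asked whether the genotype effect differs between the regions. 0 of 33 members were called, where 0% of 17863 genes were, and 8 members had an unadjusted p under 0.05, where 5.83% of all genes did. The 8 became 4 without neocortex wt female 2 (808 genes) or without hippocampus wt female 3 (814 genes), and 5 without neocortex wt female 3 (723 genes). Without hippocampus wt female 2 it became 13, where 1791 genes in place of 1041 had an unadjusted p under 0.05. Subtracting the neocortical from the hippocampal genotype effect gave a negative value for 28 of 33 members, with a median of -0.10. Over all genes, 49.8% had a value above 0 and the median was -0.00044. Nptx1 gave -0.47 ± 0.12 (unadjusted p = 0.00161, adjusted p = 0.718) and Nptxr -0.39 ± 0.11 (unadjusted p = 0.00237, adjusted p = 0.729). Nptx1 had hippocampal values of 0.49, 0.056, 0.28 and 0.15 in wt, and of -0.050, 0.014, 0.13, 0.13 and 0.20 in KQ/KQ mice. Nptxr had -0.15, -0.33, -0.27 and -0.31 in wt, and -0.47, -0.59, -0.40, -0.32 and -0.28 in KQ/KQ mice. For both genes the hippocampal genotypes overlapped, whereas in the neocortex 1 wt library at most lay above a KQ/KQ library. Grik4 gave -0.42 ± 0.14 (adjusted p = 0.783) and Cnih2 -0.25 ± 0.084 (adjusted p = 0.789).

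Markers of cell types were read beside these genotype values. In the hippocampus all 6 excitatory neuron markers had negative values in KQ/KQ mice, with a median of -0.25 and an unadjusted p under 0.05 for each (lowest adjusted p = 0.284). Their mean over each library ran from -0.16 to -0.084 in wt and from -0.52 to -0.23 in KQ/KQ mice. In the fit of both regions their hippocampal median was -0.20, with 4 of 6 at an unadjusted p under 0.05. All 4 choroid plexus markers had positive values in the KQ/KQ hippocampus, with a median of 1.72 (lowest adjusted p = 0.305), and their mean by library ran from -0.035 to 2.56 in wt and from 0.30 to 4.32 in KQ/KQ mice. In the fit of both regions the choroid plexus median was 1.09, with 0 of 4 at an unadjusted p under 0.05. In the neocortex 5 of 6 excitatory neuron markers had positive values (median 0.065), and in the fit of both regions 3 of 6 did (median 0.0018). Choroid plexus markers had a neocortical median of -0.29, with all 4 negative, and striatal markers a hippocampal median of 0.026. In the neocortex all 6 striatal markers had negative values, with a median of -0.37 (lowest adjusted p = 0.135). All 6 oligodendrocyte markers had negative values in both regions, with medians of -0.21 and -0.37, and so had all 7 interneuron markers, with medians of -0.21 and -0.22. In neocortex and hippocampus, 4 and 6 of the oligodendrocyte and 4 and 3 of the interneuron markers had an unadjusted p under 0.05. Of the 7 astrocyte markers, 7 and 5 were negative (medians -0.14 and -0.17), and all 6 microglial markers were in both regions (-0.17 and -0.15). The medians in neocortex and hippocampus were -0.21 and 0.020 for endothelial, -0.081 and 0.013 for oligodendrocyte precursor, -0.057 and -0.15 for hippocampal subfield and 0.075 and -0.20 for neocortical layer markers. No listed marker was at 0 throughout, and none was called in the fits of each region. The fit of both regions called 1, the interneuron marker Sst, lower in the KQ/KQ hippocampus (-0.44 ± 0.063, adjusted p = 0.00773), named after its values were seen. The part of these cell types in the members' genotype values was not tested.

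Other genes of the glutamatergic synapse, 47 in 5 lists, were tested beside the members. None was called between genotypes in either region, and Grm6 did not pass the filter. The paper's count test lists Homer3 among genes decreased in hippocampus. In the neocortex, 8 of the 46 tested had an unadjusted p under 0.05, led by the scaffold Homer2 (0.19 ± 0.067, adjusted p = 0.294). In the hippocampus there were 8, led by Homer3 (-0.50 ± 0.10) and by C1ql2, a mossy fibre protein that recruits kainate receptors and is also among the subfield markers (-0.34 ± 0.074), both with an adjusted p of 0.263. The 5 list medians between genotypes ran from -0.053 to 0.076 in the neocortex and from -0.11 to -0.015 in the hippocampus. Between regions, the transmembrane AMPA receptor regulators and other AMPA partners had 4 of 15 higher and 8 lower in wt, and 2 higher and 9 lower in KQ/KQ mice. Cacng8, the regulator known from hippocampal AMPA receptors and chosen here after its values were seen, was higher by 1.01 ± 0.057 in wt and 0.86 ± 0.050 in KQ/KQ mice. Scaffold and traffic genes had 5 higher and 4 lower of 15 in wt and 4 and 5 in KQ/KQ mice, glutamate synthesis and transport genes 2 and 0 of 8 and then 2 and 1, synaptic organizers 1 and 1 of 5 in both genotypes, and the other receptor subunits 1 and 0 of 3 and then 0 and 2.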

How the data were processed

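The 20 libraries held total RNA after removal of rRNA. The authors used cutadapt for trimming, STAR 2.5.2b for alignment to mm10 (RefSeq annotation) and Salmon for abundance, then applied the variance-stabilizing transformation of DESeq2 1.34.0 in R 4.1.0 and removed sex and litter with limma; these names and versions come from the paper and the submitters' processing notes. The deposited values are log2-like, carry no counts, and leave read depth unknown, so a count test and counting intervals could not be used.

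Genes at 0 in every library (4383) were left out. So were genes with the same value, within 1e-06, in all libraries of a set of at least 3 of the same sex, litter and region, as a gene at its floor would have. This kept 18329 genes in neocortex, 18310 in hippocampus and 17863 in both. Differences were tested with limma 3.58.1 (statmod 1.5.0, R 4.3.3), two-sided, with sex and litter refitted so that the degrees of freedom they used were counted (residual 4 in neocortex, 3 in hippocampus and 11 in the fit of both), and p-values were adjusted by Benjamini-Hochberg over all genes tested, with a threshold of 0.05. The script was tested on simulated data. Figures were drawn with Python 3.11.15 and matplotlib 3.10.9. The members and the marker and pathway lists were chosen with earlier results of these data known. All members were named. Values by library were given for the 3 members with the lowest p in each region and, between regions, for the 4 largest differences in each direction, on the mean of both genotypes, among members called in both. The 2 pathway genes with the lowest p in each region were to be named, of which 1 is not reported here. Alternatives covered the model terms, the filter, the variance estimate, centring, replicate blocks and leaving out each library. Promoter windows were matched by symbol.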

Additional observations from a re-analysis of the deposited data

Results flagged for a closer look

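In each group of 4 to 6 libraries the highest or lowest library was compared with the others by Dixon's ratio, in 132 tests over the 33 members and 4 groups. Chance flags about 1 in 20 among independent values. That rate is only a rough guide here, because sex and litter were removed and neocortex wt male 1 equals its group's fitted value. In all, 5 stood apart, each in a different library. Grin1 in neocortex wt female 1 was at 0.092, with the other wt libraries from -0.10 to -0.047. Grik2 in neocortex wt male 2 was at 0.073, with the others from -0.20 to -0.12. Gria4 in neocortex KQ/KQ female 2 was at -0.17, with the others from -0.0059 to 0.076. Grm5 in hippocampus wt male 1 was at 0.38, with all others at 0.44. Grin2b in hippocampus KQ/KQ male 2 was at 0.066, with the others from 0.29 to 0.34.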

How the results depend on the processing

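No value that passed a test changed direction in any fit tried. The number of members called between genotypes depended on the litter terms. In the neocortex it went from 0 to 6 with genotype as the only term, with sex without litter and with litter as a random effect. In the hippocampus it went from 0 to 3 with genotype as the only term, to 1 (Cnih2) with sex without litter and to 1 with litter as a random effect. With groups as the only terms, the fit of both regions called 5 members in neocortex and 4 in hippocampus, and 1 (Nptx1) for the difference between regions. Over all genes, genotype as the only term called 2745 in neocortex in place of 7 and 373 in hippocampus in place of 0. Sex without litter called 1939 and 147 genes, and litter as a random effect 2423 and 150. Groups as the only terms called 2381 in place of 40 and 2077 in place of 69, and 69 in place of 0 for the difference between regions. Leaving out each library in turn gave 0 to 1 members called in hippocampus in the fit of both regions (1, Cnih2, without hippocampus KQ/KQ male 1, where 45 of 17863 genes were called). Class medians ranged from -0.035 to 0.064 (AMPA), 0.028 to 0.23 (kainate) and -0.0031 to 0.11 (metabotropic) between genotypes in neocortex, from -0.042 to 0.16 (kainate) in hippocampus, from 0.20 to 0.34 (kainate) and -0.16 to -0.019 (metabotropic) between regions in wt, from 0.00024 to 0.10 (AMPA) between regions in KQ/KQ, and from -0.13 to -0.030 (AMPA) and -0.17 to -0.037 (kainate) for the difference between regions.

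Correlations of same-numbered wt and KQ/KQ deviations ran from -0.107 to 0.117 over 5 pairs in neocortex and from -0.604 to -0.127 over 4 pairs in hippocampus. These deviations were taken after sex and litter were fitted, which removes what libraries of a litter share. They therefore cannot show whether the replicate numbers pair wt with KQ/KQ libraries. The neocortical male 1 pair (-0.00131) tells nothing, because wt male 1 has no deviation from its fitted values. The replicate block, with sex and number in place of sex and litter, called 4 members in neocortex (Grm2, Neto2, Nptx1 and Nptxr) and 0 in hippocampus, with 1856 and 0 genes in all. Neocortical and hippocampal libraries of the same female number had correlations from -1 to 0.722 over 6 pairs. The -1 is that of KQ/KQ female 2, whose libraries are alone in their litter and deviate oppositely by construction, so it tells nothing about pairing. The next lowest was -0.687 (KQ/KQ female 3). Between regions, a block on differences within the female numbers, added after seeing the data, moved the wt metabotropic median to -0.024 from -0.082. With the female mouse as a random effect, 24 members were called between regions in wt and 25 in KQ/KQ, where 6019 and 7031 of 17863 genes were. The cause of these changes was not tested. Few residual degrees of freedom and the unknown depth limit all genotype comparisons.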
